A study of Homo sapiens with 7 samples.

Results

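The elements described here carry the last codes of a massively parallel reporter library, from 68001 to 69210, and were set apart because odd and even codes differed in activity there. Each code stands for 1 DNA sequence that was cloned in both orientations, so that Seq_68001_fwd and Seq_68001_rev are 2 copies of sequence 68001. The range held 1210 sequences, 605 with odd and 605 with even codes, and hence 2420 possible copies. The deposited tables listed 2386 of them, of 135736 listed in the whole library. Measures of activity use the copies that reached 10 counts in all 3 DNA libraries, 2359 of the range and 134435 of the whole library. Each odd code N was paired with the even code above it, N+1, and with the even code below it, N-1. Since the range was proposed from measured activity, the activity of odd and even copies and the difference within pairs are given as descriptions, without a test. Recovery, barcode number and the difference between orientations were not used in choosing the range.

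The host cell was HepG2, an established line from a human liver carcinoma that keeps many features of hepatocytes. The study asked what ChIP-seq signal and the binding of transcription factors say about the activity of an element. All DNA and RNA libraries came from the same kind of cell, infected with the same lentiviral pool and harvested after 48 hours. Integrated barcode DNA and barcode RNA were counted in 3 replicates each, and 1 plasmid library tied barcodes to elements. The labels give 8 wells per replicate but do not say whether replicates were infected separately, so a p-value here reflects variation among 3 libraries per molecule, which may be technical. In comparisons of orientations or pair members, counts of different copies from the same library entered as separate columns. Those p-values and calls treat such columns as independent, which they may not be.

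In a lentiviral reporter assay of this kind, a candidate element stands upstream of a minimal promoter, which by itself starts little transcription, and of a transcribed barcode. An enhancer recruits transcription factors that raise transcription from that promoter, so a copy's barcodes are then more frequent in RNA than in the DNA of the infected cells. Activity is therefore read as RNA over DNA. Enhancers are often described as acting in either orientation, which the forward and reverse copies of each sequence allow to be compared. Each test element was 170 nucleotides long. The tables used here tie no bases, coordinates or element classes to the codes, so what separates odd from even codes is not given here and neither are neighbouring genes.

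The sequences at hand are the 15-base barcodes of the plasmid library. Most copies carried many of them, so any 1 barcode had little weight. Those of the copies with the fewest are shown, 5′ to 3′ as deposited, since their values rest on these few barcodes alone.
Seq_68544_rev: atcatatacttcctc
Seq_68596_fwd: ccatacactacaccg
Seq_68664_rev, barcode 1: catgagcgggagtat
Seq_68664_rev, barcode 2: gacccccaccaatat
Seq_68895_fwd, barcode 1: atttaggtatcatct
Seq_68895_fwd, barcode 2: cctttaagattagat
Seq_68895_fwd, barcode 3: gcccacatctaaaca

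Total counts per library were 34860651 to 44258011 in DNA and 108324310 to 114738370 in RNA. Elements of the range made up 1.78% to 1.83% of counts in DNA and 3.22% to 3.25% in RNA. Their median count per copy was 240.5 to 309 in DNA and 829 to 869 in RNA. No 2 libraries of the same molecule agreed within sampling noise over all copies (chi-square divided by its degrees of freedom, 3.01 to 6.59). Intervals and standard errors cover the spread between these libraries, and counts are not known to be separate molecules.

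Recovery was nearly complete and close to equal for odd and even codes. Of 1210 possible copies each, 1196 odd (98.8%) and 1190 even (98.3%) were listed, and 1184 odd (97.9%) and 1175 even (97.1%) passed the DNA minimum. With a minimum of 50 DNA counts, 1154 odd and 1160 even copies were left. Of the 1210 sequences, 1189 were listed in both orientations, 8 in 1 orientation and 13 in neither. The 13 were 68185, 68206, 68227, 68228, 68235, 68236, 68602, 68613, 68653, 68654, 68658, 68896 and 68904, of which 5 are odd and 8 even. They include 3 neighbouring odd-even pairs lost as a whole, and none lies below 68185 or above 68904. The 1-orientation sequences were 68395, 68424, 68544, 68619, 68676 and 68914, listed in reverse, and 68689 and 68903, listed forward.

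Odd copies carried more barcodes than even ones. The median was 98 barcodes for odd forward copies and 113 for odd reverse copies, against 82 and 94 for even copies. In the rest of the library the medians were 82 forward and 89 reverse, so even copies lay near them and odd copies above. The odd member had more barcodes than N+1 in 369 of 589 forward pairs (62.6%) and in 369 of 594 reverse pairs (62.1%), by a median of 13 and 16 barcodes. Against N-1 the shares were 62.7% and 61.5%. Barcode number is a property of the plasmid pool and not of expression. It was measured in 1 library, so this difference has no replicate check.

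The larger barcode number of odd copies came with less DNA per barcode. DNA abundance of forward copies, as the median over copies, was 5.72 ± 0.117 CPM in odd and 5.99 ± 0.0412 CPM in even codes (SD over 3 DNA libraries). Odd forward copies were at 5.85, 5.64 and 5.67 CPM in the 3 libraries and even ones at 6.03, 5.95 and 5.99, so the libraries did not overlap. In reverse the order was turned, with 8.93 ± 0.142 CPM in odd and 7.93 ± 0.255 CPM in even codes. Per barcode, the median DNA abundance was 0.0579 CPM in odd and 0.0725 CPM in even forward copies, and 0.0794 and 0.0840 CPM in reverse copies. In the rest of the library it was 0.0697 CPM forward and 0.0839 CPM reverse. Barcode number is the divisor of this value, so the value is not independent of the difference in barcode number. The DNA abundance is the denominator of activity, and its part in the differences of activity described next was not tested.

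Even copies were the more active members. The median log2 RNA/DNA, from the quasi-likelihood fit of edgeR with TMM scaling, was 0.24 in odd and 1.22 in even copies, and -0.04 over all tested copies of the library. By orientation it was 0.37 forward and 0.06 reverse in odd codes, and 1.08 forward and 1.40 reverse in even codes. The quartiles were -0.32 and 0.94 in odd and 0.14 and 1.81 in even codes. Odd and even distributions thus overlapped widely, and both reached from inactive to strongly active copies. On the scale of single replicates, log2 of (RNA CPM + 1) over (DNA CPM + 1), the odd medians were 0.20, 0.21 and 0.22 (0.21 ± 0.010, SD, n = 3). The even medians were 1.08, 1.10 and 1.08 (1.09 ± 0.011).

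A call means an adjusted p (Benjamini-Hochberg, edgeR) under 0.05. RNA was called higher than DNA in 575 odd copies (48.6%) and 833 even copies (70.9%), where the share over the library was 35.2%. It was called lower in 302 odd (25.5%) and 171 even copies (14.6%), against 32.2%. At least 2-fold and called higher were 278 odd copies (23.5%) and 666 even copies (56.7%), against 17.7%. At least 4-fold were 55 odd and 176 even copies, a level that 2.18% of the library reached, and at least 8-fold were 15 odd and 30 even copies, against 0.179%. At the other end, 24 odd and 13 even copies were called at least 2-fold lower, against 0.488%. The range was proposed from such values, so nothing is read from the gap between these shares. The zero of the scale is set by TMM. With library totals alone the median of the library moved from -0.04 to -0.47, that of odd copies fell below 0, to -0.19, and that of even copies became 0.79. The share of calls that were higher then moved from 65.6% to 40.3% in odd and from 83.0% to 71.5% in even copies. Differences between odd and even copies do not rest on the scaling, which cancels in them.

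The alternation did not start at code 68001. Pairs from 67501 to 67600 had a median odd minus even difference of -0.00 on the log2 scale, and those of each block of 100 codes from 67601 to 68000 had one of -0.77 to -1.08. Just below the range, Seq_67997 was at 0.17 forward and -0.04 reverse and Seq_67998 at 2.19 and 2.39. Seq_67999 stood at 0.75 and 0.90, and Seq_68000 at 2.06 and 2.28. The first codes inside looked alike, with Seq_68001 at 1.23 forward and 0.57 reverse and Seq_68002 at 1.53 and 1.83. Seq_68003 was at 0.10 and -0.28, and Seq_68004 at 2.26 and 2.45. The last 4 codes of the library were Seq_69207, at 1.53 and 1.15, Seq_69208, at 1.81 and 1.92, Seq_69209, at 0.74 and 0.40, and Seq_69210, at 1.51 and 1.92. At both ends of the range the even codes shown were above their odd neighbours in each orientation. The last 4 codes were not typical of that end. From 69171 to 69210 the even member was higher in 16 of 39 pairs, and the median difference was 0.14.

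Within pairs of an odd code and the even code above it, the even member was usually the higher. The median odd minus even difference in log2 RNA/DNA was -0.39 over 577 forward pairs, so the even member was 1.31-fold more active. Over 582 reverse pairs it was -0.71, or 1.64-fold. The quartiles were -0.91 and -0.00 in forward pairs and -1.42 and -0.11 in reverse pairs. The medians of single replicates were -0.39, -0.39 and -0.36 forward (-0.38 ± 0.013, SD, n = 3) and -0.67, -0.64 and -0.63 reverse (-0.65 ± 0.020). The even member had the higher value in 901 of 1159 pairs (77.7%).

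The interaction of molecule and pair member in edgeR was called for 640 pairs with the even member higher (55.2%) and for 64 with the odd member higher (5.52%). Over all odd and N+1 pairs of the library the shares were 22.2% and 21%. At least 2-fold and called were 354 pairs with the even (30.5%) and 11 with the odd member higher (0.949%), against 9.44% and 8.76%. All 3 replicates of the even member lay above all 3 of the odd member in 682 pairs (58.8%), and the reverse held in 90 (7.77%), against 26.6% and 25.6%. These shares describe how the range was found and are not evidence for it.

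Both orientations of a pair mostly had the same direction. All 4 copies were tested in 571 pairs. The even member was called higher in both orientations in 257 (45.0%, with 14.3% over the library) and the odd member in 19 (3.33%, with 13.2%). Opposite calls were found in 4 pairs, and in 447 of 31825 pairs of the rest of the library. The even member was higher in all 6 orientation-by-replicate values of 310 pairs (54.3%; 19.9%) and the odd member in those of 33 (5.78%; 18.6%). Forward and reverse differences had a Pearson correlation of 0.841 and a Spearman correlation of 0.817 over these pairs. Over the pairs of the rest of the library they were 0.753 and 0.629, so orientations went together there too. Forward and reverse copies carry different barcodes but share libraries and depth, and pairs are not independent replicates, so the correlation is a description.

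The even code below served as well as the one above. Against N-1 the median difference was -0.42 over 573 forward and -0.75 over 575 reverse pairs. The even member was called higher in 651 of 1148 pairs (22.1% over the library) and the odd member in 52 (21%). With a replicate left out, the latter count ranged from 32, without replicate 2, to 42, in fits whose library shares are not given here. At least 2-fold and called were 352 pairs with the even (9.36% over the library) and 8 with the odd member higher (8.54%). The replicates lay apart with the even member above in 696 pairs (26.5%) and with the odd member above in 74 (25.5%). An odd code set against even codes 3, 5 or 7 places away in either direction had a median difference of -0.40 to -0.44 forward and -0.70 to -0.80 reverse. Codes of the same parity 2, 4 or 6 places apart had medians of -0.02 to 0.02. The partner's distance therefore hardly mattered to the median.

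Beyond the level they shared with their surroundings, pair members had little in common. After subtraction of the median of the odd or even copies of the same orientation in the same run of 40 codes, described further on, the odd code's remaining value had a correlation with that of N+1 of -0.01 forward (577 pairs) and -0.02 reverse (582 pairs). With N-1 it was 0.137 in forward (543 pairs) and 0.145 in reverse copies (546 pairs). The forward and reverse copies of 1 sequence, in contrast, correlated at 0.725 over 586 odd and 0.805 over 583 even sequences after the same subtraction. These values share libraries and depth and carry no test.

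The pairs with the largest excess of the even member, among 340 of 561 pairs that had at least 10 barcodes in each copy and 1 direction in all 6 values, joined an odd member between -0.63 and 0.10 to an even member between 1.77 and 2.49. Seq_68009 stood at -0.04 forward and -0.42 reverse, with replicate values of -0.24, -0.03 and 0.27 forward and -0.13, -0.60 and -0.37 reverse. Its partner Seq_68010 stood at 2.45 and 2.49, with replicate values of 2.24, 2.27 and 2.02 forward and 2.42, 1.91 and 2.37 reverse. No replicate of the odd member came near any of the even member. The difference was -2.50 (SE 0.19) forward and -2.90 (SE 0.17) reverse.

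The next pairs had the same shape. Seq_68003 minus Seq_68004 was -2.16 (SE 0.16) forward and -2.73 (SE 0.12) reverse. Seq_68243 minus Seq_68244 was -2.17 (SE 0.17) and -2.62 (SE 0.15). In this pair the replicates of the odd member were -0.19, 0.21 and -0.13 forward, around 0, and those of the even member 2.03, 1.90 and 1.86. Seq_68725 minus Seq_68726 was -2.25 (SE 0.14) forward and -2.50 (SE 0.14) reverse. Seq_69051 minus Seq_69052 was -1.83 (SE 0.19) and -2.82 (SE 0.16). The odd members of these pairs were not thinly sampled, with 75 to 129 barcodes per copy.

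Among the same 340 pairs with N+1, 33 were led by the odd member. Over all tested pairs of the range with N-1, with no barcode minimum, the odd copy exceeded the even one by up to 3.04 forward and 3.01 reverse. The same maxima with N+1 were 1.92 and 2.08. The largest of the 33 by the mean of both orientations, Seq_68079 against Seq_68080, lies in the most active run of the range. Seq_68079 stood at 4.65 forward and 4.19 reverse and Seq_68080 at 2.73 and 2.48, a difference of 1.92 (SE 0.20) and 1.71 (SE 0.22). Here both members were active, and the odd one more so. Seq_69017 stood at 1.50 forward and 0.75 reverse, with replicate values of 1.40, 1.29 and 1.46 forward and 0.74, 0.54 and 0.80 reverse. Seq_69018 stood at -0.27 and -0.66, with -0.30, -0.46 and 0.06 forward and -0.65, -0.30 and -0.80 reverse. The replicates of the members did not overlap in either orientation. Seq_69201 minus Seq_69202 was 0.90 (SE 0.14) forward and 1.81 (SE 0.14) reverse, with 121 and 133 barcodes in the odd and 45 and 38 in the even member. Seq_68305 minus Seq_68306 was 1.25 (SE 0.14) and 1.28 (SE 0.13). Seq_69049 minus Seq_69050 was 0.96 (SE 0.22) and 1.27 (SE 0.18).

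Some pairs differed by less than their error, at any level of activity. Seq_68315 stood at 1.69 forward and 1.75 reverse and Seq_68316 at 1.75 and 1.69, with differences of -0.06 (SE 0.15) and 0.06 (SE 0.14). Both members of this pair were active. Seq_68507 stood at 0.21 and -0.25 and Seq_68508 at 0.15 and -0.19, with differences of 0.05 (SE 0.22) and -0.06 (SE 0.25). Seq_68537 stood at -0.58 and -0.85 and Seq_68538 at -0.64 and -0.78, with differences of 0.06 (SE 0.27) and -0.07 (SE 0.25). The members of the last pair were both below the centre of the library.

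Orientation was tested on its own, as the interaction of molecule and orientation in edgeR, over the 1169 sequences with both copies tested. Odd sequences were more active forward and even sequences, more narrowly, in reverse. Forward minus reverse had a median of 0.28 over 586 odd and -0.13 over 583 even sequences. Over all tested sequences of the library it was 0.18, so the library as a whole leaned forward too. The medians of the replicates were 0.17, 0.23 and 0.23 in odd (0.21 ± 0.033, SD, n = 3) and -0.17, -0.11 and -0.10 in even sequences (-0.13 ± 0.037), without overlap. The forward copy was called higher in 164 odd (28.0%) and 35 even sequences (6.00%), where the share over the library was 24.7%. The reverse copy was called higher in 22 odd (3.75%) and 112 even sequences (19.2%), against 7.68%. Odd sequences were thus near the library in their forward calls, whereas even sequences had fewer forward and more reverse calls. All 3 replicates were higher forward in 304 odd (51.9%) and 107 even sequences (18.4%), against 43.1% over the library. They were higher in reverse in 53 odd (9.04%) and 253 even sequences (43.4%), against 17%.

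These counts were lower when a replicate was left out, by an amount that differed between replicates. The library shares above belong to the fit of all 3 replicates. Those of the smaller fits are not given here, so the drop cannot be set against the library. Without replicates 1, 2 and 3 in turn, the forward calls of odd sequences were 104, 93 and 107, and those of even sequences 23, 19 and 17. The reverse calls of even sequences were 53 without replicate 1, 55 without replicate 2 and 90 without replicate 3. The reverse calls of odd sequences ranged from 12, without replicate 2, to 21. The medians were 0.26 to 0.28 and -0.15 to -0.11 in these fits.

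The lean of even sequences to the reverse copy appeared where they were active. With sequences sorted by the mean of both orientations, even ones between -0.5 and 0 had a median forward minus reverse of 0.21 (68 sequences), and those between 1 and 1.5 one of -0.31 (88 sequences). In that upper class 1 even sequence was called forward and 29 (33.0%) in reverse. Odd sequences of the same class had a median of 0.19, with 16 called forward and 9 in reverse of 52, and the rest of the library one of 0.03, with 22.6% called forward and 19.7% in reverse. Between 1.5 and 2 the medians were 0.07 in 61 odd, -0.20 in 163 even and 0.01 in 3799 other sequences. Below -0.5 the medians were close together, at 0.19 in 82 odd, 0.18 in 58 even and 0.20 in 9034 other sequences. The sorting was chosen after the values were seen and carries no test of its own.

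The difference of the orientation effect within pairs was tested as a further interaction, a comparison added after the values were seen. Over 571 pairs, the forward minus reverse value of the odd member exceeded that of the even member by a median of 0.34. The replicate medians were 0.32, 0.31 and 0.31 (0.32 ± 0.0044, SD, n = 3), and the value was above 0 in 442 pairs (77.4%). The forward excess was called larger in the odd member in 155 pairs (27.1%), against 10.1% over the library, and larger in the even member in 11 (1.93%), against 9.61%. All 3 replicates had a larger forward excess in the odd member of 290 pairs (50.8%) and in the even member of 58 (10.2%), against 26.3% and 25.4% over the library. Without replicate 1 the calls were 85 and 6, without replicate 2 they were 87 and 7, and without replicate 3 they were 119 and 7. Library shares of these 3 fits are not given here. The same numbers read the other way say that the gap between odd and even copies was wider in reverse. The library shares are not matched for the difference in activity between pair members, and the part of the activity level was not tested.

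Single sequences with the largest effects of orientation came from both parities. Seq_68491, an odd code, was at 0.45 forward and -0.96 reverse, with replicate values of 0.18, 0.27 and 0.60 forward and -0.60, -0.64 and -0.84 reverse. Its difference was 1.42 (SE 0.24, adjusted p = 1.04e-05, edgeR interaction), forward in 3 of 3 replicates. Seq_68800, an even code, was at 1.11 forward and -0.05 reverse, a difference of 1.16 (SE 0.11, adjusted p = 1.86e-10, edgeR). Its replicates were at 1.09, 1.07 and 1.03 forward and at -0.01, -0.09 and -0.05 in reverse, so only the forward copy stood above the centre of the library. The odd codes Seq_68163, with 1.09 (SE 0.18), and Seq_68621, with 0.99 (SE 0.21), followed.

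The reverse copy led most in Seq_68110, an even code at 0.79 forward and 2.06 reverse. Its replicates were 0.80, 0.56 and 0.72 forward and 2.15, 1.79 and 1.89 in reverse, and its difference was -1.27 (SE 0.14, adjusted p = 1.91e-09, edgeR). Both copies were active, the reverse one more. Seq_69179 had -1.20 (SE 0.29, adjusted p = 0.00137, edgeR), on 21 forward and 32 reverse barcodes, and was the 1 odd code among the 4 largest. Seq_68188 had -1.13 (SE 0.13), from -0.17 forward and 0.96 reverse. Seq_68480 had -1.04 (SE 0.15), from 0.13 forward and 1.16 reverse.

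Along the codes, activity changed in blocks. Medians over 10 odd and 10 even codes on each side of a boundary gave 12 largest steps, and 10 of these lay within 2 codes of a multiple of 40 codes counted from 68011. The range was therefore described in 30 runs of 40 codes, with 80 possible copies each, after the first 10 codes. These boundaries were chosen from the values, so the runs carry no test. The largest step lay at 68091, where odd copies fell by 2.29 and even copies by 1.77 on the log2 scale. At 68571 odd copies rose by 1.23 and even copies by 2.42. The fewest listed copies of a run were 72, in the runs that start at 68211 and 68651, and the run from 68891 had 74.

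The even median was above the odd median in 27 of the 30 runs, but the size of the gap differed. The median pair difference was -1 or less in 6 runs, -0.5 or less in 16, and within 0.2 of 0 in 7. It ranged from -1.39 in the run from 68091 to 0.14 in the last run. Odd and even medians moved together, with a Pearson correlation over runs of 0.91, where all runs share the 6 libraries. Odd medians ranged from -0.81 to 2.79 and even medians from -0.82 to 3.37. The barcode median was higher in odd copies in 28 of 30 runs. The median forward minus reverse of odd sequences was above 0 in 28 runs and that of even sequences below 0 in 19.

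From 68091 to 69170 the runs fell into 9 successive groups of 3, and in each group the pair difference moved nearer to 0 from the first run to the third. The start and size of the groups were chosen after the values were seen, so the pattern is a description without a test. Left outside were the runs from 68011 and 68051, with pair differences of -0.833 and -0.815, and the last run, with 0.141. Over the 9 groups its median was -1.08 in the first, -0.64 in the second and -0.10 in the third run. The ranges were -1.39 to -0.68, -1.19 to -0.22 and -0.32 to 0.05. The gap closed in different ways. In 7 groups both odd and even medians fell. From 69051, the even median went from 1.42 to 0.66 and -0.50 and the odd median from 0.19 to -0.04 and -0.51, so that in the third run neither was active. In the group from 68571, even medians were 1.56, 0.98 and -0.29 and odd medians 0.35, -0.07 and -0.61.

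In the other 2 groups the even members stayed active and the odd medians rose towards theirs. From 68211, the even medians were 1.83, 1.77 and 1.79 and the odd medians 0.86, 1.26 and 1.72. From 68331, they were 1.93, 1.97 and 1.95 against 1.17, 1.53 and 1.81. In the run from 68291, all 40 odd and all 40 even copies were called and at least 2-fold higher in RNA than in DNA. The pairs of that run were called with the even member higher in 8 and the odd member higher in 5 of 40, against 22.2% and 21% over the library. The number of copies at least 2-fold higher in the 3 runs from 68211 was 17 of 36, 30 of 40 and 40 of 40 for odd codes, and 36 of 36, 40 of 40 and 40 of 40 for even codes.

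The gap was widest in the run from 68091 to 68130, where 35 of 40 even copies and 2 of 40 odd copies were called at least 2-fold higher. The pair difference was called with the even member higher in 34 of 40 pairs and with the odd member higher in 2. Over the library these shares were 22.2% and 21%. In the run from 68531 to 68570, at the other end, no copy of either parity was at least 2-fold higher. The odd median was -0.81 and the even median -0.82 there. Of 39 pairs, 1 was called with the even and 2 with the odd member higher. The orientation effects of odd and even sequences were alike in this run, at 0.18 and 0.19. In the run from 68091 they were 0.28 and -0.25.

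The run from 68051 to 68090 held the strongest copies of the range. Its median was 2.79 in odd and 3.37 in even copies, and all 40 of each were called at least 2-fold higher. It held 44 of the 45 copies of the range that were at least 8-fold higher, 14 odd and 30 even, which is 18.3% of the 240 such copies of the library. The even member was called higher in 23 of 40 pairs and the odd member in 9, against 22.2% and 21% of pairs over the library. The 9 were the largest number of odd calls of any run, but near the share over the library.

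Seq_68079_fwd led the run with a log2 RNA/DNA of 4.65 (SE 0.14) on 83 barcodes. Its counts were 298, 259 and 407 in DNA and 17240, 18568 and 17435 in RNA. The RNA counts were close together, and the third DNA count was the highest in spite of the smaller library. Its DNA abundance was 6.73, 7.41 and 11.7 CPM. Seq_68060_fwd, at 4.36 (SE 0.18), had 10.6, 9.56 and 17.9 CPM in DNA and Seq_68072_fwd, at 4.29 (SE 0.20), had 10.3, 10.3 and 19.7 CPM. The same rise in DNA replicate 3 was seen in Seq_68079_rev, at 4.19 (SE 0.18), and in Seq_68084_fwd, at 4.11 (SE 0.17). Relative to its mean, the DNA of these 5 copies was thus more uneven between libraries than their RNA. RNA varied too, at 362 ± 36.6 CPM in Seq_68079_rev (SD, n = 3), where DNA was at 26.8 ± 9.31 CPM. Without DNA replicate 3, a fit added after seeing the data, the 5 values were 4.93, 4.68, 4.65, 4.50 and 4.44 in the order above.

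The lowest values rested on few barcodes. Seq_68544_rev, at -3.24 (SE 0.62), had the 1 barcode printed above, with 34, 20 and 10 counts in DNA and 2, 4 and 8 in RNA. Seq_68895_fwd, at -2.35 (SE 0.39), had the 3 barcodes printed above, with 44, 40 and 34 counts in DNA and 19, 16 and 15 in RNA. All RNA counts of these copies lay below all their DNA counts, although RNA libraries were the deeper ones. Seq_68921_fwd, at -1.42 (SE 0.29), had 5 barcodes. With at least 10 barcodes the lowest copies were Seq_68551_fwd, at -1.39 (SE 0.16) on 56 barcodes, and Seq_68555_rev, at -1.36 (SE 0.19) on 45. Seq_68540_rev followed at -1.33 (SE 0.19), Seq_68533_rev at -1.31 (SE 0.25) and Seq_68542_rev at -1.29 (SE 0.18). These 5 copies, 3 odd and 2 even, all lie in the run from 68531, whose medians were the lowest of the range.

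Few barcodes also went with a high value. Seq_68596_fwd, also with 1 barcode, was at 1.64 (SE 0.41), with 10, 44 and 46 counts in DNA and 272, 154 and 270 in RNA. Seq_68664_rev, with 2 barcodes, was at -0.29 (SE 0.20). The most barcodes were carried by Seq_68180_rev, with 276 and a value of -0.17 (SE 0.09), Seq_68201_rev, with 273 and -0.24 (SE 0.09), and Seq_69181_rev, with 270 and -0.33 (SE 0.08). Of all 8 listed copies with 1 barcode, 2 of them past the DNA minimum, every count in every library was an even number. Among tested copies, 26 odd and 17 even ones had under 10 barcodes.

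The DNA minimum of 10 counts passed Seq_68544_rev and Seq_68596_fwd, each with a lowest DNA count of 10, and Seq_68583_fwd, with 28, 11 and 20 counts and a value of 1.18 (SE 0.32). It left out Seq_68595_rev, with 9, 15 and 16, Seq_68922_fwd, with 14, 8 and 12, and Seq_68660_rev, with 14, 26 and 8. It also left out Seq_68427_fwd, which has the highest signal of the range in the authors' deposited table, 4.31, on 2 DNA and 178 RNA counts in total. That signal includes the 0.01 CPM that the authors' ratio adds to RNA and DNA, which is large beside a DNA value of 0.0175 CPM. In the authors' deposited table Seq_68079_fwd followed with 4.24. Over the tested copies the median signal in the authors' deposited table was -0.06 forward and -0.37 reverse in odd codes, and 0.66 and 0.97 in even codes. The order of the 4 classes was the one found with TMM scaling, at lower values.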

How the data were processed

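Barcode DNA and RNA of a lentiviral reporter library were counted in HepG2. Per the file headers, the deposited tables hold whole-number counts per element copy in 3 DNA and 3 RNA libraries, and a barcode table of the plasmid library. The authors' deposited signal table pools replicates. Its totals equalled the summed counts in all 2386 copies of the range, 2 further columns hold the authors' CPM, another their ratio, which matched RNA CPM + 0.01 over DNA CPM + 0.01 in all 2386 copies (relative tolerance 0.001), and the deposited signal is its log2. BWA 0.7.17 and the build hg38 appear in the submitters' processing notes. The sources used here do not say whether reads or molecular identifiers were counted.

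From the deposited counts, edgeR 4.0.16 in R 4.3.3 fitted quasi-likelihood models over every copy of the library that reached 10 counts in all 3 DNA libraries (TMM on totals over all copies, robust dispersion), and p-values were adjusted over all of them. Orientation and pair differences were interactions with molecule, fitted over all pairs of the library. The copies compared entered as separate columns of the same libraries, without a term for library. A pair is an odd code and N+1 or N-1. Values per replicate add a pseudocount of 1 CPM. The methods were tested on simulated data. DESeq2 1.42.0, limma 3.58.1, other scalings, stricter minimums (50 DNA counts, 10 barcodes), omitted replicates, a replicate block, and a pseudocount of 0.1 CPM were alternatives. The runs of 40 codes, their groups of 3, the pair-by-orientation comparison and the fit without DNA replicate 3 were added after seeing the data.

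Named were the 5 pairs with the largest difference in each direction and the 3 nearest to 0, the 5 highest and lowest copies, the 4 sequences with the largest orientation difference each way, the copies with the most and fewest barcodes, and those next to the limits of code and DNA count. The members and lists were chosen with earlier results of these data known.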

Additional observations from a re-analysis of the deposited data

Results flagged for a closer look

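The effect of orientation differed between odd and even members of the same pair, by a test of the difference itself. The forward minus reverse value of the odd member exceeded that of the even member by a median of 0.341 on the log2 scale. By edgeR's interaction, the forward excess was larger in the odd member in 155 of 571 pairs and larger in the even member in 11, with 10.1% and 9.61% of pairs called over the library. The comparison was added after the values were seen. The DNA abundance, which was lower in odd than in even forward copies and higher in reverse, moved with it, and its part was not tested. Even members were also the more active ones, and the library shares are not matched for that. In the rest of the library, forward minus reverse had a median of 0.25 at activities between -0.5 and 0 and 0.01 between 1.5 and 2. Odd sequences were at 0.38 and 0.07 in these classes and even ones at 0.21 and -0.20. The part of the activity level was not tested.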

How the results depend on the processing

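Of 308 refits of summary values, 263 kept their direction and stayed within 1.5 times the count or 1 SD between replicates, 44 moved further and 1 reversed. The pair and orientation medians kept their sign in each of these fits. With library totals alone, the calls of odd copies were 374 higher and 553 lower and those of even copies 297 lower, and the medians were -0.19 for odd, which reversed, and 0.79 for even copies. With limma on log2(CPM + 1), most medians were nearer 0: 0.20 for odd and 1.09 for even copies, and 0.22 for odd forward minus reverse. Forward and reverse pairs were at -0.33 and -0.63 with N+1 and at -0.36 and -0.68 with N-1. The pair-by-orientation difference was 0.32. The median of even forward minus reverse was slightly further from 0, at -0.14 against -0.13 in the main fit. The replicate medians were 0.25 and 1.20 with a pseudocount of 0.1 CPM. The even median was 1.24 with at least 50 DNA counts, the odd median 0.25 with at least 10 barcodes. 

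With 1 replicate, or DNA replicate 3 alone, left out, the medians ranged from 0.20 to 0.24 (odd) and 1.19 to 1.24 (even), for N+1 pairs from -0.41 to -0.38 (forward) and -0.74 to -0.69 (reverse), for forward N-1 pairs from -0.44 to -0.41, and for the pair-by-orientation difference from 0.33 to 0.35. Orientation calls ranged from 93 to 142 and 12 to 23 (odd, forward and reverse) and from 17 to 24 and 53 to 112 (even). Odd calls against N-1 ranged from 32 to 45, and pair-by-orientation calls from 85 to 144 and 6 to 8. Library shares of these fits are not given here.

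Of 1562 refits of named copies, sequences and pairs, 1515 kept direction and call, 12 lost a call, 13 gained one and 22 reversed. With library totals alone, which lowered the library median by the shift given above, the reversals were Seq_68003_fwd at -0.33, Seq_68480_fwd at -0.30, Seq_68507_fwd at -0.22, Seq_68508_fwd at -0.28, Seq_68621_fwd at -0.16, Seq_69179_rev at -0.25 and Seq_69209_rev at -0.033. With a replicate or DNA replicate 3 left out, values near 0 changed sign: Seq_68009_fwd ranged from -0.21 to 0.13, Seq_68243_fwd from -0.21 to 0.047 and Seq_69051_fwd from -0.29 to 0.19. The pairs nearest to 0 did so too: forward and reverse differences ranged from -0.15 to 0.024 and -0.019 to 0.093 for Seq_68315 (-0.094 in reverse with limma), from -0.12 to 0.23 and -0.14 to 0.089 for Seq_68507, and from -0.16 to 0.31 and -0.36 to 0.088 for Seq_68537. The cause was not tested.

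The main fits did not pair DNA with RNA libraries by their number. Deviations of same-numbered libraries correlated weakly but above 0, at 0.034, 0.046 and 0.052, and those of others at -0.035 to -0.010. This is a slight hint, from the data alone, that equal numbers belong together. With the replicate block, the even member was called higher in 642 pairs with N+1 and the odd member in 63, forward calls were 166 in odd and reverse calls 116 in even sequences, and activity calls were 576 in odd and 833 in even copies.

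Depth limits the copies with no DNA count. These were Seq_68906_fwd and Seq_68914_rev, with 4 and 2 RNA counts in all, where 3 DNA counts would correspond to 8.76 RNA counts at equal CPM.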
